A study of Mus musculus with 2 samples.

Results

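Dendritic neuropil spots were examined in 2 coronal mouse brain sections profiled with Visium, an assay in which tissue is laid on a slide printed with spots of barcoded primers, so that each RNA read can be traced to its place. A spot was scored by the mean level of Ddn, Camk2a, Cabp7, Psd, Sowaha and Hopx minus the mean level of Spink8, Neurod6, Prox1 and C1ql2, each level being the natural logarithm of 1 plus the gene's count per 10000 counts of the spot. The 120 highest scores of each section, among spots with at least 1000 unique molecular identifiers (UMIs, which let each captured molecule be counted a single time), were taken as members. This gave 240 neuropil spots of 7890 spots in all, of which 7510 had at least 1000 UMIs. A spot is a small region that can hold several cells or parts of cells, so the members are pieces of tissue and not cells.

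The study compared memory of active place avoidance, a task on a rotating arena in which a mouse learns to stay away from a zone that gives a mild foot shock. Both mice were adult males, aged 3 to 4 months, of the ArcCreERT2::eYFPflx line on a C57BL/6 background, in which a tamoxifen-dependent Cre recombinase under control of Arc can switch on a yellow fluorescent reporter. The mouse labelled trained learned the task with the shock on, the mouse labelled untrained spent the same sessions with the shock always off, and brains were taken 60 min after a 10 min retention test without shock. Each label had 1 section of 1 mouse, so a difference between labels cannot be told apart from a difference between animals, sections or libraries, and no test between labels was possible. Of the spots within 4 grid steps of the hippocampal cell layers, 40.3% and 68.2% held Egr1 and 31.7% and 51.7% held Jun, in the order of depth (median 5220.5 and 14401 molecules per spot), whereas their share of all molecules ran the other way, at 189 and 168 per 1000000 for Egr1 and 86.6 and 66.7 for Jun. The study also counts spots with any detected copy, within its own outline of the hippocampus. In its text the section of the trained mouse holds more spots with either gene, the reverse of the shares of spots given here. The sets of spots are not the same, and whether the labels are the right way round could not be settled from these values. Sections are called by their deposited labels throughout. Values are given for the section labelled trained first and for the section labelled untrained second.

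Hippocampal neuropil is the tissue between the packed cell body layers of CA1 and the dentate gyrus, filled with the dendrites of pyramidal and granule cells, the axon terminals that contact them and the fine processes of astrocytes. Most neuronal mRNA stays in the cell body, but a set of transcripts, such as those of Camk2a, Ddn and Shank1, is carried along microtubules into dendrites, where it can be translated near synapses. Dendrites and astrocyte processes also hold many mitochondria, which carry their own transcribed genome.

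The 6 genes that chose the members are listed here as a description only, because the rule fixed their direction. Levels were pooled over spots as CPM (a gene's UMIs divided by all UMIs of those spots, times 1000000), and the members were set against the remaining spots of the same section with at least 1000 UMIs. Ddn, which encodes dendrin, a postsynaptic protein (chromosome 15, 98803777 to 98809490, minus strand, GRCm38/mm10 with the GENCODE vM21 annotation), stood at 1185 CPM in members and 176 CPM in the remaining spots of the first section, and at 776 and 225 CPM in the second. Camk2a, the alpha subunit of the calcium/calmodulin-dependent kinase II of synapses, stood at 1149 against 246 CPM and at 927 against 295 CPM. Cabp7, a neuronal calcium-binding protein, stood at 305 against 42.9 CPM and at 187 against 48.0 CPM. For these 3 genes both neuropil levels were above both levels of the remaining spots.

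Psd, an exchange factor for the small GTPase Arf6 that acts in dendrites, had log2 ratios of members over remaining spots of 1.90 and 1.17, Sowaha 2.23 and 1.97, and Hopx, a homeodomain-only protein that marks some astrocytes and radial glia, 2.40 and 1.78. Single spots were sparse: Cabp7 had at least 1 UMI in 76 and 95 of the 120 members and Ddn in 113 and 120. Scores of members ran from 1.26 to 2.23 and from 1.04 to 1.91, and the median of all scored spots was 0.31 and 0.38. The last member and the first spot outside scored 1.25599 and 1.25574 in the first section and 1.04008 and 1.03662 in the second, and 14 and 26 members lay within 0.05 of the limit, as did 25 and 34 spots just outside. Part of Ddn, Cabp7, Psd, Sowaha and Hopx is overlapped by a gene on the other strand, and how reads were assigned by strand is not given in the sources used here, so their levels are uncertain to that extent.

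Position on the slide was not used by the rule, and most members lay beside the hippocampal cell layers. CA1 layer spots were the 120 highest by Fibcd1, Spink8 and Pou3f1 and dentate layer spots the 120 highest by Prox1, C1ql2, Dsp and Stxbp6, and those with at least 4 other layer spots within 2 grid steps, 96 and 103 for CA1 and 88 and 102 for the dentate gyrus, outlined the layers. Layer levels given below pool all 120 spots unless the outlined spots are named. Cux2-rich spots were the 120 highest by Cux2, Rasgrf2 and Stard8 minus Spink8 and C1ql2, of which 52 and 65 lay above the outlined layers on the slide, where the neocortex is, and 56 and 53 below them. Of the 120 members, 115 (95.8%) and 101 (84.2%) lay within 4 grid steps of such a layer spot, where 25.8% and 27.3% of all spots with at least 1000 UMIs lay. Members touched a layer spot directly in 66 and 61 cases. They were clumped, with 93 and 95 members having at least 1 other member among their 6 neighbours and 27 and 25 having none. More members lay left of the midline (76 and 81) than right of it (44 and 39). The left side was also shallower, with medians over all scored spots of 5084 and 11646 UMIs, against 7609 and 17080 on the right. For members these medians were 2205 and 7538 on the left and 4169 and 17436 on the right. The part of depth in the uneven sides was not tested.

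**Figure D1:**
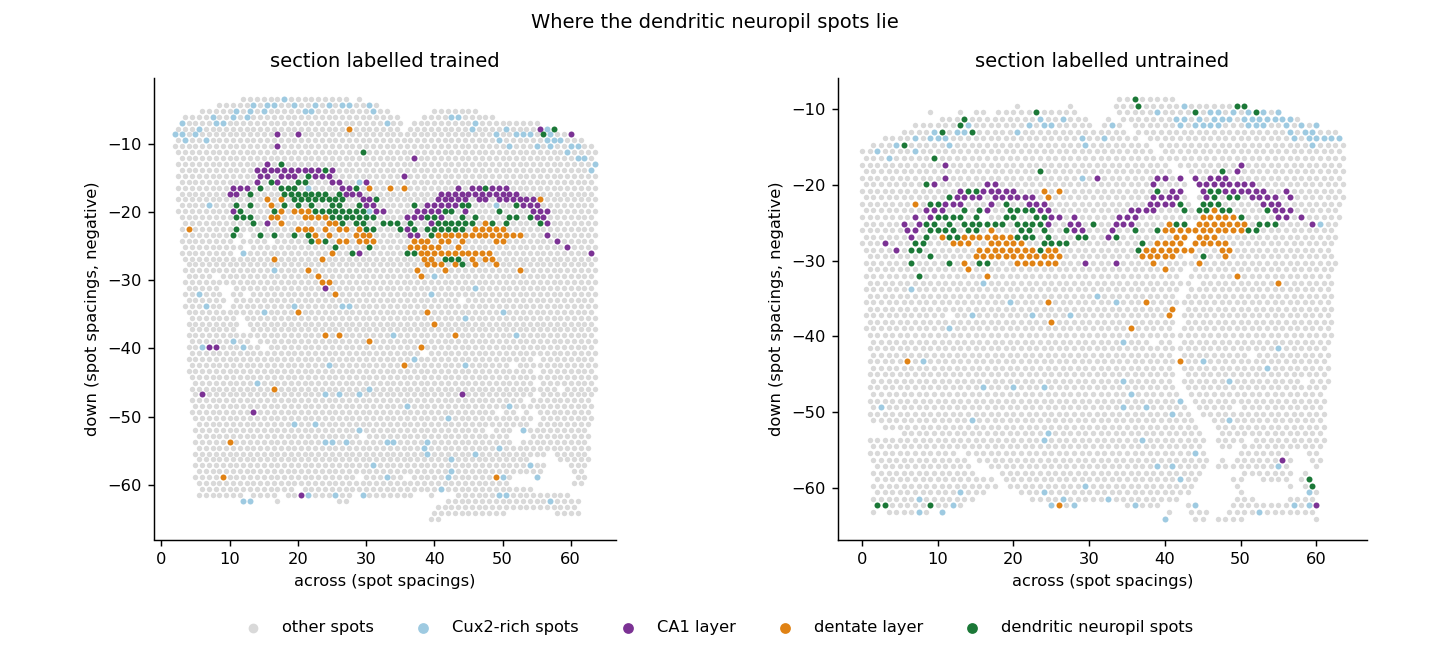
Map of each section on the spot grid, with axes in spot spacings and 1 point per spot, coloured as neuropil spots, CA1 layer spots, dentate layer spots, Cux2-rich spots or other spots. Most neuropil spots lie scattered or in clumps beside and between the CA1 and dentate layers on both sides of the midline, and 5 and 19 of the 120 members lie farther than 4 steps from the outlined layers.

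The genes that mark dendritic neuropil are those of the rule, so the label of the spots cannot be checked by them, and their levels by place are a description. The 5 and 19 members beyond 4 steps had Cabp7 at 37.6 and 34.8 CPM, against 324 and 214 CPM beside the layers, and Ddn at 753 and 433 CPM, against 1217 and 839 CPM. Their summed level of Cux2, Rasgrf2 and Stard8, genes of upper neocortical layers, was 188 and 219 CPM, against 61.0 and 70.0 CPM beside the layers. In the first section these levels rest on 5 spots with a median of 5059 UMIs, and so on few counts. Genes of cell bodies were not absent from members: the granule cell gene C1ql2 stood at 51.6 and 49.95 CPM and the pyramidal gene Neurod6 at 38.7 and 38.4 CPM, although the rule selected against both. A further group held 68 and 60 spots that touched at least 2 members and lay within 4 grid steps of the outlined layers. Members, layer spots and Cux2-rich spots were left out of it. Its log2 ratios over the remaining spots were 2.01 and 1.79 for Ddn and 2.36 and 1.76 for Cabp7. Outside the rule, these spots had 1.26 and 0.74 for Shank1 and 1.03 and 0.90 for Slc1a2.

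The files held 4152 and 3738 spots, and 238 and 142 of them had under 1000 UMIs and were left out. Members were shallower than the tissue around them, with a median of 2679 UMIs (1047 to 11205) and 8894 UMIs (1110 to 31515) per spot, against 6380.5 and 14336.5 in the remaining spots, and they held 387328 and 1301300 UMIs in all. Fewer cells under a spot and less RNA per cell cannot be told apart in these data. The sections shared 3448 spot barcodes of 4442 found in either, as slides print the same barcodes at the same grid positions, and 10 of these barcodes belonged to a member in both sections. When every spot was thinned to 1000 UMIs before scoring, 70 and 31 of the 120 members were chosen again, and 106 and 91 of the spots then chosen lay within 4 steps of the layers.

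Across all genes, levels in neuropil were compared for the 1364 genes with at least 50 UMIs in the members, or at least 50 expected from the level of the remaining spots, in both sections. The median log2 ratio was -0.35 and -0.21, and it was -0.11 and -0.03 when the mitochondrial genes were left out of that total. The ratios had the same sign in both sections for 1171 genes (85.9%). At least 2-fold higher in both sections were 10 genes (0.733% of those compared), of which 6 were those of the rule, and at least 2-fold lower were 17 (1.25%); with the mitochondrial genes left out of the total, these counts were 24 and 4. With 1 section per label these are descriptions, and intervals given below as 95% cover counting error only.

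The 4 genes of the 10 that the rule did not name were Rasl10b, mt-Atp8, mt-Nd4l and mt-Nd6. Rasl10b, a Ras-like small GTPase (chromosome 11, 83409137 to 83421039), had 194 against 63.5 CPM and 138 against 67.8 CPM, log2 ratios of 1.62 (95% 1.26 to 1.94) and 1.02 (0.80 to 1.24). Its level was also above that of the CA1 layer (59.99 and 62.2 CPM) and of the dentate layer (67.7 and 84.2 CPM). Adcy1, the calcium-stimulated adenylyl cyclase of forebrain neurons, came close to the same size, with 607 against 240 CPM and 527 against 269 CPM, log2 ratios of 1.34 and 0.97. Adcy1 was higher still in the dentate layer, at 922 and 1006 CPM, and lower in the CA1 layer, at 333 and 338 CPM.

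Messenger RNAs known from dendrites were mostly higher in neuropil. Of 20 genes listed, 13 were compared, 11 were higher in both sections and 1 was lower in both, with a median log2 ratio of 0.59 and 0.33. Of all 1364 genes compared, 240 (17.6%) were higher in both sections and 931 (68.3%) lower in both, and the counts of the lists below are to be read against these shares. The list's genes were chosen with earlier results of these data known, so their count is a description. Shank1, a scaffold of the postsynaptic density (chromosome 7, 44310253 to 44360572), had 188 against 67.1 CPM and 201 against 108 CPM, log2 ratios of 1.5 (1.13 to 1.83) and 0.90 (0.71 to 1.08). On the left and right of the midline Shank1 stood at 235 and 150 CPM in the first section and at 198 and 203 CPM in the second, all above the remaining spots. Ppp1r9b, which encodes the spine protein spinophilin, had 305 against 129 CPM and 312 against 193 CPM, log2 ratios of 1.24 and 0.70.

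The middle of the list was closer to the surrounding tissue. Nsmf, a synapse-to-nucleus messenger protein, had log2 ratios of 0.93 and 0.52, Dlgap3, a scaffold that binds Shank proteins, 0.83 and 0.49, Dlg4, which encodes PSD-95, 0.61 and 0.37, and Map2, the microtubule-associated protein of dendrites, 0.59 and 0.25. Kif5a, a kinesin heavy chain that also serves axons, was the gene lower in both, at -0.71 and -0.39. Nrgn, the calmodulin-binding neurogranin, was split between the sections, at -0.19 (-0.32 to -0.07) and 0.33 (0.27 to 0.39).

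Against the cell body layers the same list divided. Of the 13 genes, 7 were above the CA1 layer in both sections and 4 were below it, and 6 were above and 6 below the dentate layer. Of all genes compared, 305 (22.4%) were above and 918 (67.3%) below the CA1 layer in both sections, and 273 (20.01%) above and 862 (63.2%) below the dentate layer. Summed over its 20 genes, the list was lower in members than in the CA1 layer, with log2 ratios of -0.53 and -0.37. It was also lower than in the dentate layer, at -0.32 and -0.18, and than in Cux2-rich spots, at -0.12 and -0.05. The median over the 13 genes was 0.39 and 0.06 against the CA1 layer and 0.05 and -0.10 against the dentate layer. Nrgn (3300 and 3078 CPM) and Hpca (2833 and 2942 CPM) held much of the list's CA1 layer sum of 11943 and 14027 CPM. Over the CA1 layer Shank1 stood at log2 ratios of 0.88 and 0.64, Ppp1r9b at 0.80 and 0.42, Nsmf at 0.83 and 0.47 and Camk2n1, an inhibitor of the kinase Camk2a belongs to, at 0.77 and 0.69. Hpca, the calcium sensor hippocalcin, stood at -2.47 and -2.12, Itpka, an actin-bundling kinase of spines, at -1.68 and -1.33, and Nrgn at -1.27 and -0.81. The rule gene Psd was at 764 CPM in members and 527 CPM in the CA1 layer of the first section, but at 582 and 589 CPM in the second, with a log2 ratio of -0.02 (-0.15 to 0.11).

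**Figure D2:**
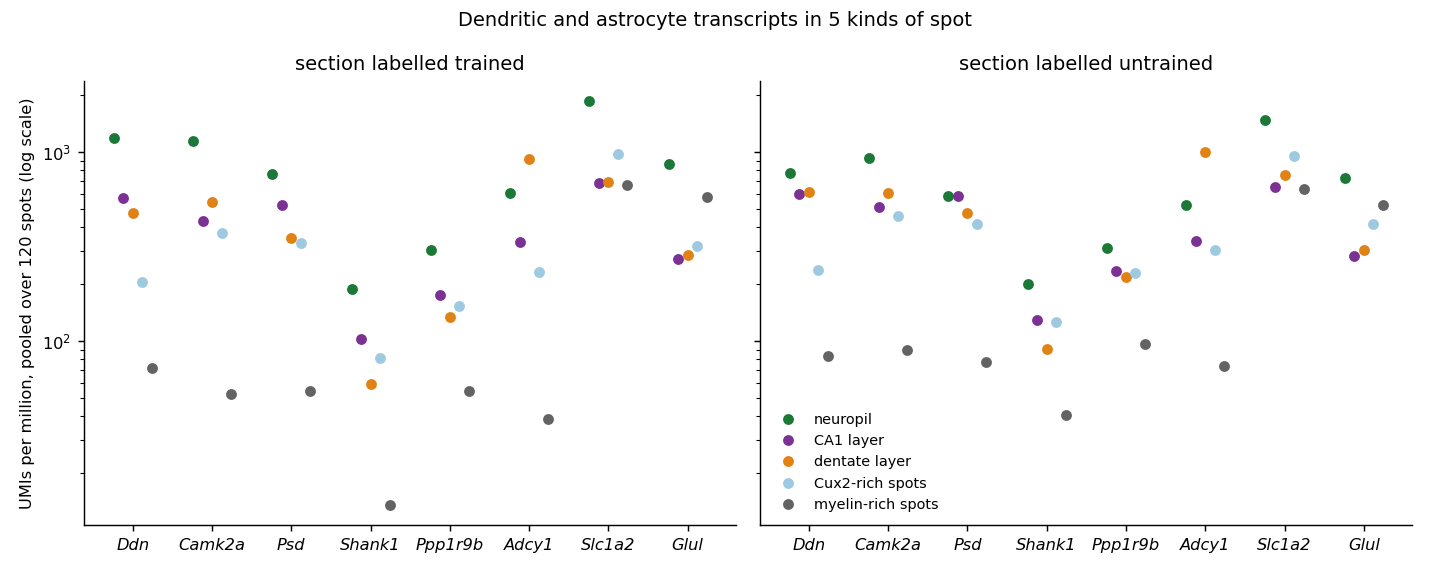
Levels of 8 genes in 5 kinds of spot, pooled over 120 spots each and drawn as CPM on a log axis, with 1 panel per section. Shank1, Ppp1r9b, Slc1a2 and Glul are highest in neuropil in both sections, whereas Adcy1 is highest in the dentate layer (922 and 1006 CPM).

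Bc1, a short non-coding RNA that is carried into dendrites (chromosome 7, 144914470 to 144914637, plus strand), was above the remaining spots in both sections although its level differed widely between them. It stood at 108 against 52.0 CPM in the section labelled trained and at 1060 against 546 CPM in the section labelled untrained, log2 ratios of 1.08 (0.58 to 1.5) and 0.96 (0.88 to 1.03). With 42 UMIs in the members of the first section it missed the minimum of 50 and was in none of the counts against remaining spots or layers. It was among the genes compared between the sections, described below. It was also above the CA1 layer, by log2 ratios of 1.30 and 1.32, and above the dentate layer, by 1.21 and 2.10.

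Subunits of glutamate receptors, the receptors of the excitatory synapses made on these dendrites, were mostly too rare to compare. Of 18 listed genes 5 were compared, with a median log2 ratio of 0.19 and 0.43 over the remaining spots, and all 5 were below both the CA1 and the dentate layer in both sections, as were 67.3% and 63.2% of all genes. Grin2a, an NMDA receptor subunit, had log2 ratios over the remaining spots of 0.68 (0.28 to 1.03) and 0.43 (0.21 to 0.64), but of -1.35 and -1.43 over the CA1 layer. Grin1, the obligatory NMDA receptor subunit, had -0.16 and -0.07 over the remaining spots, and Gria2, an AMPA receptor subunit, -0.09 and 0.50. In the first section the list's median ran from -0.20 to 0.85 across settings and was above 0 in 13 of 15. Gria1, another AMPA receptor subunit, had 0.19 and 0.50 over the remaining spots and -1.59 and -1.0 over the CA1 layer.

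Mitochondrially encoded transcripts took a larger share of UMIs in neuropil than in the tissue around it, the largest of the kinds of spot compared apart from the spots touching members in the second section. The pooled share was 25.5% and 26.05% in members, against 12.2% and 15.9% in the remaining spots, 9.07% and 12.8% in the CA1 layer, 7.99% and 12.2% in the dentate layer and 11.3% and 16.1% in Cux2-rich spots. With only the outlined layer spots it was 8.39% and 12.7% for CA1 and 7.05% and 11.8% for the dentate gyrus, and Cux2-rich spots above the layers had 11.1% and 16.3%. Spots touching members stood at 22.3% and 26.7%. Over single members the share ran from 9.01% to 46.9% with a median of 29.0% in the first section, and from 6.63% to 37.7% with a median of 28.3% in the second. The upper quartile of the remaining spots (16.8% and 19.7%) was exceeded by 111 and 102 of the 120 members.

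All 13 mitochondrial protein-coding genes were higher in members in both sections, with a median log2 ratio of 1.23 and 0.83. The lowest ratio was 0.74 in the first section, of mt-Co3, a subunit of cytochrome oxidase, and 0.52 in the second, of mt-Cytb, cytochrome b. The highest were 1.72 and 1.20, both of mt-Atp8, a subunit of ATP synthase. Several of these genes overlap (mt-Atp8 with mt-Atp6, mt-Nd4l with mt-Nd4, mt-Nd6 with mt-Nd5), and how reads in the overlaps were counted is not given in the sources used here. The share moved with depth: remaining spots whose UMIs lay between the quartiles of the members (675 and 1297 spots, median 2871 and 10593 UMIs) had 15.3% and 18.4%, above all remaining spots and below the members. The 120 spots richest in myelin genes, a group chosen after values were seen, had medians of 4038.5 and 6401.5 UMIs and 8.06% and 12.7%, and the part of depth in the share was not tested. With members chosen on thinned counts the list's median was 0.77 and 0.31.

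**Figure D3:**
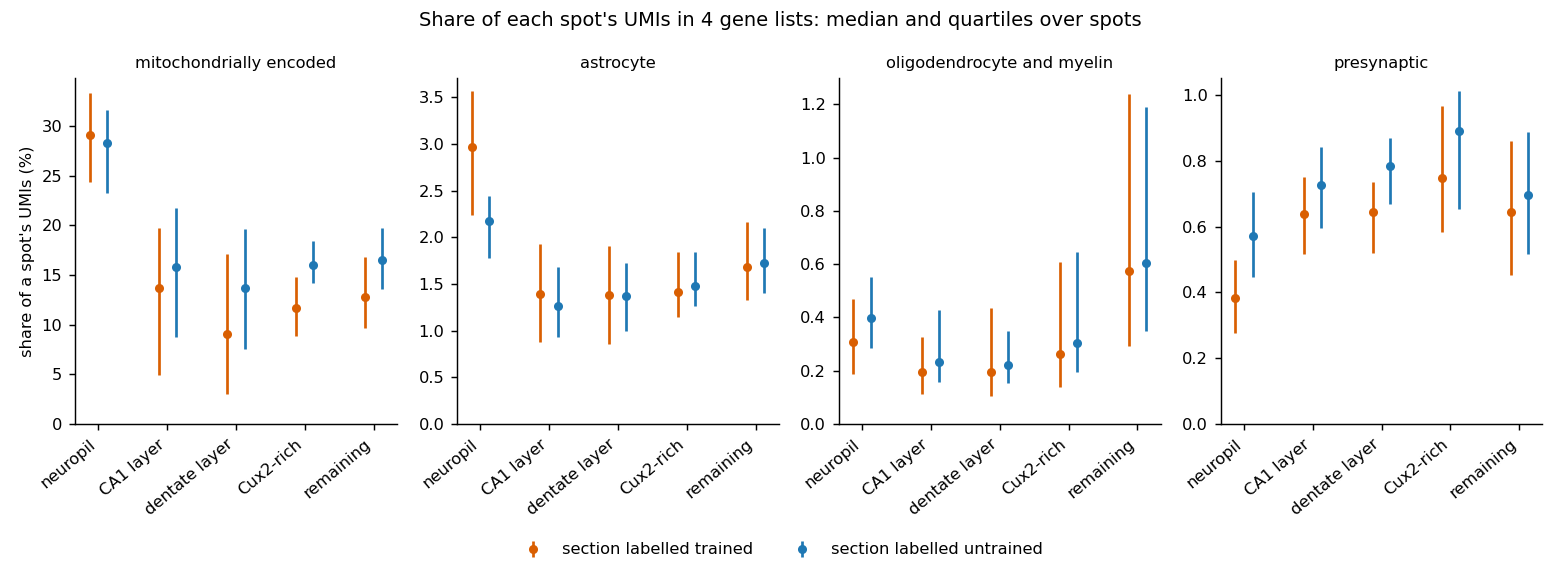
Share of each spot's UMIs, in percent, that fell on mitochondrially encoded, astrocyte, myelin and presynaptic genes in 5 kinds of spot, as the median over spots (points) with the quartiles (lines) for each section. Neuropil has the highest mitochondrial median (29.0% and 28.3%) and the lowest presynaptic median (0.38% and 0.57%) of the 5 kinds in both sections.

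Astrocyte genes were higher in neuropil than in the remaining spots and than in either cell layer. Of 30 listed genes 21 were compared, 18 were higher in both sections and 1 was lower in both (17.6% and 68.3% of all genes), with a median log2 ratio of 0.80 and 0.45. All but Mt3, a metallothionein, were above both the CA1 and the dentate layer in both sections, where 22.4% and 20.01% of all genes were above the one and the other. Slc1a2, the main glutamate transporter of astrocytes (chromosome 2, 102658659 to 102790784), had 1859 against 868 CPM and 1476 against 823 CPM, log2 ratios of 1.10 (0.99 to 1.21) and 0.84 (0.78 to 0.91). Glul, glutamine synthetase, which turns the glutamate taken up into glutamine, had 867 against 354 CPM and 732 against 408 CPM, log2 ratios of 1.29 and 0.84. On either side of the midline Slc1a2 stood between 1403 and 2079 CPM and Glul between 715 and 898 CPM, all above the remaining spots.

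Other astrocyte genes ranged widely. Of the 9 that missed the minimum of 50 UMIs, 3 were higher in both sections and 3 lower in both: Agt, angiotensinogen, stood at -1.32 and -1.20, the GABA transporter Slc6a11 at -1.03 and -1.04 and the glycine transporter Slc6a9, with 2 UMIs in the members of the first section, at -2.55 and -0.88. Slc1a3, a second glutamate transporter, had log2 ratios of 1.0 and 0.78, Gja1, the gap junction protein connexin 43, 0.80 and 0.65, and Aqp4, the water channel of astrocyte endfeet, 1.29 and 0.52. Sparcl1, a secreted matrix protein, was lower in both sections by a small amount, at -0.01 (-0.17 to 0.15) and -0.13 (-0.22 to -0.05), and S100b and Ndrg2 changed sign between sections. Gfap, the intermediate filament of astrocytes, was the farthest apart between sections of the 21 genes compared, with 219 against 53.1 CPM and 90.7 against 66.3 CPM, log2 ratios of 2.06 (1.72 to 2.36) and 0.46 (0.18 to 0.72).

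Summed over the list, astrocyte genes reached 27197 CPM in members against 15677 CPM in the remaining spots of the first section, and 20364 against 16484 CPM in the second. The share of a spot's UMIs was above the median of the remaining spots in 110 and 94 of the 120 members. Myelin-rich spots reached 19480 and 19735 CPM, close to the neuropil of the second section. The size of the difference depended on how members were chosen: with the score taken on thinned counts the median log2 ratio was 0.37 and 0.04, and against remaining spots of the members' depth it was 0.28 and 0.17.

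Myelin and oligodendrocyte genes were lower in neuropil than in the remaining spots, which include the white matter. All 11 genes compared of 15 listed were lower in both sections (68.3% of all genes), 4 of them at least 2-fold (1.25% of all genes), with a median log2 ratio of -1.09 and -0.92. Mbp, myelin basic protein, had 1384 against 3008 CPM and 1712 against 3243 CPM, log2 ratios of -1.12 and -0.92. Against the CA1 layer the order turned round, and 10 of the 11 genes were higher in neuropil in both sections (22.4% of all genes), Mbp by log2 ratios of 0.61 and 0.32 and Cnp, an enzyme of myelin membranes, by 0.82 and 0.49. Mog, a protein of the outer myelin surface, was the exception, at -0.06 (-0.91 to 0.68) and 0.21 (-0.20 to 0.61). Against the outlined CA1 spots alone it stood at 0.58 and 0.52, and all 11 genes were higher.

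Markers of other cell types were mostly too rare to compare gene by gene. Of 14 microglial genes only C1qa, a complement component, was compared, at log2 ratios of 0.80 (0.39 to 1.15) and 0.55 (0.28 to 0.79), and the list's summed ratio was 0.51 and 0.38. Of the 13 that missed the minimum, 12 were higher in both sections, 3 of them with both intervals above 0, and 0 were lower in both. Among all genes compared the shares were 17.6% and 68.3%. Of 12 endothelial and pericyte genes 2 were compared, with Rgs5, a pericyte gene, at 0.82 and 0.46 and Bsg, a membrane glycoprotein of brain endothelium, at 0.03 and -0.37. Of 9 oligodendrocyte precursor genes 2 were compared, and Olig1, a lineage transcription factor, was at -0.64 and -0.48 while the proteoglycan gene Cspg5 was at 0.38 and 0.16. The 6 Cajal-Retzius genes summed to 27 and 154 UMIs over the members and none could be compared.

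Interneuron genes did not move together. Of 13 listed 8 were compared, 1 was higher in both sections and 3 were lower in both (17.6% and 68.3% of all genes), with a median log2 ratio of -0.61 and 0.05. Of the 5 that missed the minimum, 3 were higher in both sections, among them Reln, a secreted glycoprotein that Cajal-Retzius cells also make, at 1.37 (0.65 to 1.95) and 1.49 (1.12 to 1.82) on 22 and 74 UMIs, and Ndnf, a marker of neurogliaform cells, at 1.69 and 1.65 on 9 and 33 UMIs. Npy, a neuropeptide of several interneuron types, stood at 0.08 (-0.28 to 0.40) and 0.34 (0.16 to 0.51), and Pvalb, the calcium buffer of basket cells, was lower at -1.30 and -1.05. Gad1, an enzyme that makes GABA, had 178 against 331 CPM in the first section and 192 against 160 CPM in the second, log2 ratios of -0.88 and 0.27. Its level within neuropil was close in the sections, and it was the level of the remaining spots that differed.

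Presynaptic genes, whose mRNAs lie mostly in the cell bodies of the neurons that send axons, were mostly lower in neuropil, as were most genes. Of 20 listed 14 were compared, 11 were lower in both sections and 1 was higher in both, with a median log2 ratio of -0.81 and -0.35, against -0.35 and -0.21 for all genes compared, of which 931 (68.3%) were lower in both, so the count is near that of all genes. Against remaining spots of the members' depth the median was -0.26 and -0.15, against -0.19 and -0.15 for all genes. Snap25, a protein of the vesicle fusion complex, had 901 against 2204 CPM and 1104 against 1494 CPM, log2 ratios of -1.29 and -0.44. Cplx1, a complexin that clamps vesicle fusion, had -0.96 and -0.77, whereas its relative Cplx2 was the exception, with 222 against 109 CPM and 339 against 201 CPM, log2 ratios of 1.03 (0.70 to 1.34) and 0.75 (0.61 to 0.89). Cplx2 was also above the CA1 layer, by 1.22 and 0.82, but below the dentate layer, by -0.36 and -0.71. Against the CA1 layer 12 of the 14 genes were lower in both sections, as were 918 of all 1364 genes, and 11 were against the outlined spots alone (66.8% of all genes).

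Non-coding RNAs known from the nucleus and cell body gave a mixed picture. Of 8 listed 4 were compared, and Meg3 (-0.80 and -0.50), Snhg11 (-0.81 and -0.39) and Rian (-1.34 and -0.77) were lower than in the remaining spots in both sections, 3 of 4 genes where 68.3% of all genes were lower, so the count is near that of all genes. Malat1, a nuclear RNA of all cell types, was higher, with 423 against 257 CPM and 277 against 226 CPM, log2 ratios of 0.72 (0.49 to 0.94) and 0.29 (0.14 to 0.44). Against remaining spots of the members' depth Malat1 stood at -0.11 and -0.13, so its direction rested on which spots it was set against.

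Genes of cytoplasmic ribosomal proteins had levels close to those of the surrounding tissue, but stood above most genes compared. Of 84 listed 80 were compared, 37 (46.2%) were higher in both sections and 12 (15%) lower in both, against 17.6% and 68.3% of all genes, with a median log2 ratio of 0.22 and 0.00 against -0.35 and -0.21. Rps29 stood at 0.80 and 0.59 and Rps28 at 0.82 and 0.53, the highest of the list by the section nearer to 0, and Rpl21 at -0.12 and -0.23 was the lowest in the second section. In the second section the list's median ran from -0.06 to 0.18 across the alternative settings, so no direction is given for it. Ribosomal protein genes have many near-identical copies in the genome, and their single values are uncertain for that reason.

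**Figure D4:**
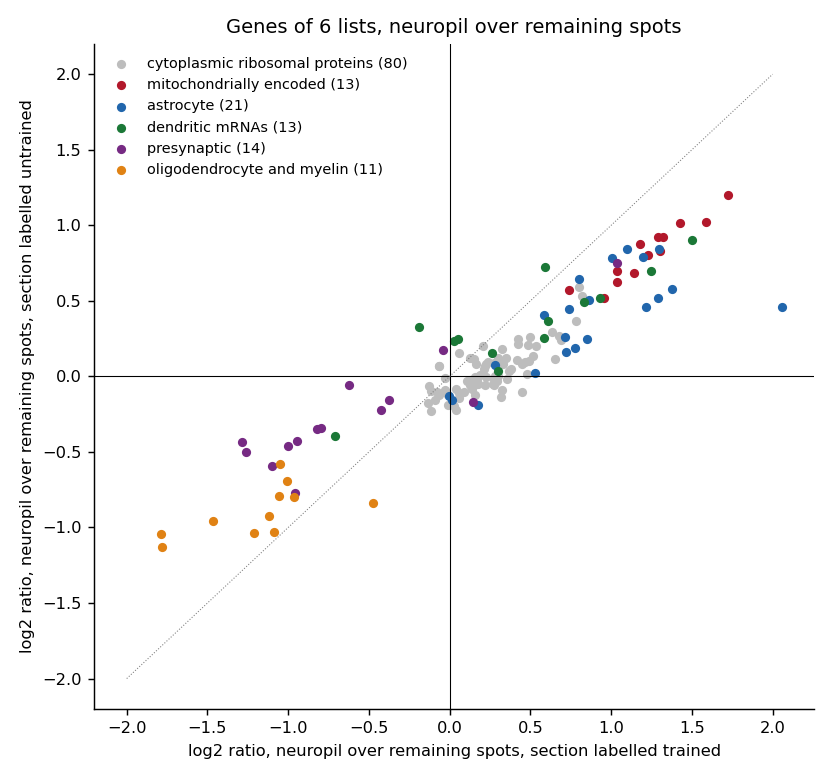
Each point is 1 gene of 6 lists, with its log2 ratio of neuropil over remaining spots in the section labelled trained on the horizontal axis and in the section labelled untrained on the vertical axis, and the dotted line marking equal ratios. Mitochondrial genes (13), most astrocyte genes (21) and most dendritic mRNAs (13) lie above 0 in both sections, and myelin genes (11) and most presynaptic genes (14) below 0.

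The 10 genes lowest in neuropil included peptide, matrix, myelin and axonal genes. Oxt, the hypothalamic peptide oxytocin, had 7 UMIs in the members of the first section, 18.1 against 671 CPM in the remaining spots, and 0 UMIs in the second, where it was at least 27.9-fold lower than the 64.3 CPM of the remaining spots when 3 UMIs are taken as the limit. Resp18, a protein of endocrine and peptide-secreting neurons, had 72.3 against 351 CPM and 111 against 390 CPM, log2 ratios of -2.26 and -1.81. Sparc, a secreted matrix protein, had -1.17 and -1.20, and Gap43, a growth cone protein, -1.95 and -1.26. Pcp4, a calmodulin regulator, had 702 against 3068 CPM and 961 against 2149 CPM, log2 ratios of -2.12 and -1.16. Ccdc136 (-1.75 and -1.21), Nrsn2 (-2.30 and -1.13), Mog (-1.78 and -1.13), Gng3, a G protein gamma subunit (-1.42 and -1.08), and Tmem130 (-1.62 and -1.06) completed the 10 lowest. Ttr, the transthyretin of the choroid plexus, was 1 of 2 genes compared of that tissue, at -1.05 and -1.68, beside Enpp2 at -0.73 and -1.04. Against remaining spots of the members' depth Ttr stood at 0.68 in the first section, the other way round.

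Members near CA1 and near the dentate gyrus were set against each other. They were divided by which outlined layer was nearer on the grid, which gave 51 and 66 members nearer CA1, 52 and 46 nearer the dentate gyrus, and 17 and 8 at equal distance that were left out. Among the 897 genes with at least 50 UMIs over the members of each section, 1 gene (0.111%) was at least 2-fold higher near CA1 in both sections and 1 gene (0.111%) at least 2-fold higher near the dentate gyrus. These counts were 0 and 0 with 60 members per section, 7 and 4 with 200 members and 12 and 3 with the score taken on thinned counts. The genes were Prkcb, protein kinase C beta, with 318 CPM near CA1 and 132 CPM near the dentate gyrus in the first section and 347 and 127 CPM in the second, and Btbd3, a regulator of dendrite orientation, with 112 and 561 CPM and 104 and 267 CPM.

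Among the other genes higher near CA1, Cck, the neuropeptide cholecystokinin, had log2 ratios of 1.51 (1.17 to 1.88) and 0.85 (0.69 to 1.02), Stmn2, a microtubule regulator, 1.55 and 0.91, and Sst, the peptide somatostatin, 1.34 and 0.99. Snhg11 stood at 1.12 and 0.97 and Vsnl1, a neuronal calcium sensor, at 0.92 and 0.89. Near the dentate gyrus Adcy1 was higher, with 835 against 442 CPM and 756 against 357 CPM, as were Pcp4 (921 against 489 CPM and 1365 against 685 CPM) and Ncdn, neurochondrin (1728 against 855 CPM and 1540 against 905 CPM). Pkig, an inhibitor of protein kinase A, and Ncald, a neuronal calcium sensor, followed with log2 ratios of near CA1 over near dentate of -0.72 and -0.91 and of -1.94 and -0.64.

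The cell layers themselves differed in the same direction in both sections for these genes except Sst, which stood at 152 CPM in the CA1 layer and 175 CPM in the dentate layer of the second section. Prkcb stood at 657 and 511 CPM in the CA1 layer and at 161 and 165 CPM in the dentate layer, and Cck at 2953 and 2681 CPM against 534 and 719 CPM. Btbd3 stood at 136 and 95.8 CPM in the CA1 layer against 435 and 319 CPM in the dentate layer, and Ncdn at 2040 and 1875 CPM against 3293 and 3156 CPM. Since 66 and 61 members touched a layer spot, RNA of cell bodies under the edge of a spot and RNA of the dendrites cannot be told apart in this split.

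Between the sections, neuropil levels were compared for 2423 genes with at least 100 UMIs over the members of both. The median log2 ratio of label trained over label untrained was -0.07, and the middle 90% of genes ran from -0.77 to 0.68. At least 2-fold higher under the label trained were 27 genes (1.11%) and at least 2-fold lower 49 genes (2.02%). Of the 27, 2 were genes of the member rule, Hopx and Sowaha. In the remaining spots of the same sections 9 of the 27 and 12 of the 49 were also at least 2-fold apart in that direction.

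Of the 12 genes named here, the 6 farthest apart each way, 11 had the same sign in the remaining spots, as did 1650 of all 2423 genes. Hopx had 351 and 110 CPM in members and a log2 ratio of 1.06 in the remaining spots, but it is a gene of the member rule, so its level in members is a description. Lrrc58 stood at 1.42 and 0.91 in members and remaining spots, Bmpr1a, a receptor of bone morphogenetic proteins, at 1.31 and 1.37, and Spag9, a scaffold of JNK signalling, at 1.29 and 1.31. Rpl4, a protein of the large ribosomal subunit with near-identical copies in the genome, stood at 1.27 and 1.09.

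The lowest under the label trained was Bc1, at -3.27 (-3.77 to -2.85) in members and -3.39 in the remaining spots, with 42 and 1380 UMIs in members. Lrrc17 stood at -2.87 and -3.38, Tatdn1 at -3.05 and -1.73 and Snhg9 at -2.69 and -3.16, and each of these 3 lies on the opposite strand of part of another gene and is uncertain. Fscn1, the actin-bundling protein fascin, stood at -1.87 (-3.20 to -0.92) in members and -0.56 in the remaining spots, and Asns, asparagine synthetase, at -1.55 (-2.79 to -0.63) and -0.07. For spots touching members Asns stood at 0.34, the other way round. These last 2 genes rested on 8 and 9 UMIs in the members of the section labelled trained.

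Of the 12 genes named between the sections, Gfap was the only one whose sign differed between members and remaining spots. It had 219 and 90.7 CPM in members, a log2 ratio of 1.28 (0.86 to 1.69), with 1.27 on the left and 1.31 on the right, which are not replicates, but 53.1 and 66.3 CPM in the remaining spots, a log2 ratio of -0.32. In myelin-rich spots Gfap stood at 393 and 350 CPM, and in the CA1 layer at 45.0 and 34.0 CPM. With members chosen on other settings its ratio in members ran from 0.48 to 1.31.

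**Figure D5:**
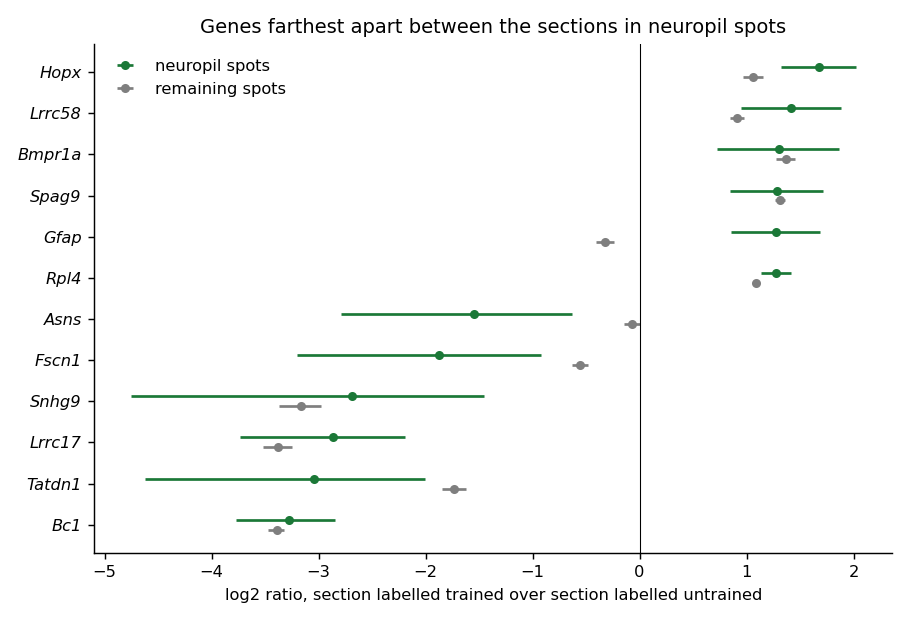
Log2 ratio of label trained over label untrained for the 12 genes named between the sections, in neuropil spots (green) and in the remaining spots (grey), with 95% intervals that cover counting error only. Gfap is the gene whose points lie on opposite sides of 0 (1.28 and -0.32), and Bc1 is the lowest in both kinds of spot (-3.27 and -3.39).

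Most gene lists differed between the sections by less than 2-fold in their summed level. The exception was choroid plexus, at a log2 ratio of -1.16 (-1.25 to -1.07) in members and -1.76 in the remaining spots, and Cajal-Retzius genes followed at -0.74 (-1.41 to -0.17) and -0.39. In the Cajal-Retzius list Calb2 had 3 and 61 UMIs in members (7.75 and 46.9 CPM), whereas Reln was level at 56.8 and 56.9 CPM. The summed level of astrocyte genes had a log2 ratio of 0.42 (0.38 to 0.45) in members and -0.07 in the remaining spots, presynaptic genes -0.49 and 0.01, ribosomal protein genes 0.30 and 0.08, and dendritic mRNAs -0.39 and -0.36. Mitochondrially encoded genes stood at -0.03 in members and -0.39 in the remaining spots. The section labelled untrained had more UMIs per spot (a median of 8894 against 2679 in members), and the part of depth in these differences was not tested.

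Immediate early genes, which neurons switch on within minutes of activity and which the study used to locate cells engaged by memory, were sparse in neuropil. Of 16 listed only Egr1, a zinc finger transcription factor, was compared with the remaining spots, and the list summed to 511 against 672 CPM and 652 against 635 CPM. Arc, whose mRNA is carried into dendrites, stood at 101 CPM (39 UMIs) and 87.6 CPM (114 UMIs) in members, with log2 ratios over the remaining spots of 0.46 (-0.06 to 0.89) and 0.39 (0.10 to 0.65). That was below the CA1 layer (150 and 160 CPM) and above the dentate layer (22.6 and 19.6 CPM) in both sections. Egr1 stood at 69.7 CPM (27 UMIs) and 121 CPM (158 UMIs), with log2 ratios over the remaining spots of -1.09 (-1.72 to -0.57) and -0.13 (-0.38 to 0.09), and of -2.44 and -1.49 over the CA1 layer. Against remaining spots of the members' depth the first of these was 0.49, the other way round.

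Between the labels Arc had a log2 ratio in members of 0.21 (-0.36 to 0.74), and 0.15 in the remaining spots. The counting interval in members spanned both signs, and no test between labels was possible. Egr1 had -0.78 (-1.45 to -0.21) in members, -0.99 left and -0.66 right of the midline, and 0.17 in the remaining spots. Of the other 4, Jun stood at 67.1 and 57.6 CPM in members, against 60.1 and 49.2 CPM in the remaining spots, 19.4 and 23.5 CPM in the CA1 layer and 214 and 152 CPM in the dentate layer. Junb stood at 23.2 and 59.9 CPM against 27.3 and 40.4 CPM in the remaining spots, Nr4a1 at 38.7 and 49.95 CPM against 47.2 and 53.5 CPM, and Fos at 5.16 CPM (2 UMIs) and 14.6 CPM against 31.8 and 27.1 CPM. Junb and Jun each overlap a gene on the other strand and are uncertain for that reason.

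At 1 fixed depth of 1000 UMIs per spot, which left out no member, Arc was found in 8 of 120 members (6.67%, exact Clopper-Pearson 2.92% to 12.7%) and 12 of 120 (10%, 5.27% to 16.8%), and Egr1 in 7 (5.83%, 2.38% to 11.6%) and 12 (10%). Without thinning the shares were 20.8% and 50.8% for Arc and 16.7% and 53.3% for Egr1, in the order of depth. Myelin-rich spots, taken as the background, had Arc in 2.50% and 3.33% and Egr1 in 4.17% and 0.833% after thinning, so the Egr1 share of neuropil in the first section was near that background. For Arc the myelin-rich intervals (0.52% to 7.13% and 0.92% to 8.31%) overlapped those of members in both sections. Remaining spots had Arc in 4.96% and 5.75% and Egr1 in 9.88% and 9.87%. The intervals of Arc and Egr1 in members overlapped between the sections.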

How the data were processed

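Visium libraries of 2 sections (1 per label) were analysed. The deposited matrices held raw counts of UMIs per gene and spot, which the authors made with Space Ranger 2.0.0 on the 10x mouse reference (mm10) after trimming with TrimGalore. Deposited tables of the authors also held Moran's I, a score of spatial clustering, and p-values, neither used in the results here. Images were not used here.

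Counts were pooled over spots and divided by their total (CPM). Log2 ratios had a pseudocount of 0.5 UMI and exact conditional binomial 95% intervals, and shares exact Clopper-Pearson 95% intervals, which cover counting error only. PCR duplicates were removed by UMI. Called means at least 2-fold. No test was run, because each label had 1 section and spots are not replicates.

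The members, lists and comparison groups were chosen with earlier results of these data known. Genes named were those of the score, the highest and lowest of each list (up to 4) and any exception, the 12 highest and 10 lowest of all genes, the 6 highest and 6 lowest between labels and between places, 6 immediate early genes and the genes of the layer scores. Further genes were named after their values were seen, as were the myelin-rich spots (120 highest by the mean of myelin genes) chosen. Some genes are not reported here. Positions came from GENCODE vM21, matched by identifier for 2429 of the 2430 genes compared.

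Values were computed with pandas 2.3.3, scipy 1.17.1 and numpy 2.4.6 under Python 3.11.15 and drawn with matplotlib 3.10.9, and ratios were tested on simulated data. The 14 alternatives changed the score, number of members, scaling, filters, pseudocount, side or spots compared, and 3 of them were chosen after seeing the data, as were the outlined layer spots taken alone.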

Additional observations from a re-analysis of the deposited data

Results flagged for a closer look

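Egr1 had a log2 ratio of label trained over label untrained of -0.78 in neuropil spots and 0.17 in the remaining spots, opposite directions within the same sections. The difference between the ratios was not tested, and the members of the section labelled trained held 27 Egr1 UMIs.

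Gfap went the other way, at 1.28 in neuropil spots and -0.32 in the remaining spots. Both sides of the midline shared the direction in members (1.27 and 1.31), and the difference from the remaining spots was not tested.

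Gad1 had a log2 ratio of members over remaining spots of -0.88 in the section labelled trained and 0.27 in the section labelled untrained. Members held 178 and 192 CPM and the remaining spots 331 and 160 CPM, and the difference was not tested.

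Nrgn had a log2 ratio of members over remaining spots of -0.19 in the section labelled trained and 0.33 in the section labelled untrained. In the section labelled trained it stood at 1008 CPM left and 1659 CPM right of the midline, on either side of the 1562 CPM of the remaining spots, and the difference was not tested.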

How the results depend on the processing

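Of 62 counts recomputed under 14 alternatives, 31 stayed within 1.5 times the value given and 31 did not. Genes at least 2-fold higher in members (10) were 24 with mitochondrial genes out of the total, 5 with a minimum of 200 UMIs, 247 with no minimum and 6 for spots touching members. Genes lower in members (17) were 9 and 29 with 60 and 200 members, 4 with mitochondrial genes out of the total, 28 with spots weighted equally, 6 with a minimum of 200 UMIs, 346 with no minimum, 7 on the left side, 6 for spots touching members and 54 against remaining spots of the members' depth. Under the label trained, genes higher (27) were 45 with 200 members, 7 with a minimum of 200 UMIs, 1984 with no minimum and 17 on the right side. Genes lower under that label (49) were 20 with 60 members, 76 with spots weighted equally, 32 with spots of at least 2000 UMIs, 20 with a pseudocount of 5 UMIs, 8 with a minimum of 200 UMIs, 1842 with no minimum, 23 on the right side and 8 for spots touching members. Genes higher near CA1 (1) were 12 with the score after thinning, 0 with 60 members and 7 with 200 members, and those near the dentate gyrus (1) were 3, 0 and 4.

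Of 2680 single values recomputed, 1956 stayed within their counting interval and 721 moved past it. Among those at least 2-fold as given, 3 turned round: Asns between labels was 0.34 for spots touching members, and against remaining spots of the members' depth the log2 ratios of Egr1 and Ttr in the section labelled trained were 0.49 and 0.68. With smaller values counted too, 119 of the 2680 changed sign, such as Malat1 against remaining spots of the members' depth. The number of genes compared changes with the minimum by construction, and the cause of the other shifts was not tested. The medians of dendritic, astrocyte and mitochondrial genes were above 0 and those of myelin and presynaptic genes below 0 in all 15 settings in both sections. The median of all genes was also below 0 (-0.35 and -0.21), and relative to it the presynaptic median reached -0.08 and 0.00. Medians of interneuron and ribosomal genes in the section labelled untrained kept their sign in 9 and 8 of 15 settings. Levels over outlined layer spots alone were an alternative chosen after seeing the data. No paired analysis was possible because each label had 1 section. Depth limits single genes most in the section labelled trained, whose members held 387328 UMIs.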
